A study of Rattus norvegicus with 36 samples.

Results

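The 9 genes described here mark the periportal side of the liver lobule, 6 as urea cycle enzymes (Nags, Cps1, Otc, Ass1, Asl and Arg1) and 3 as other periportal hepatocyte genes (Hal, Gls2 and Cdh1). They were found by gene symbol in the array's annotation, which gave 12 probe sets for the 9 genes, of 31042 probe sets and 14217 named genes in all. The arrays came from the left liver lobe of 36 male Sprague Dawley rats that were 7 weeks old when dosing began. Every animal was gavaged for 5 days with corn oil at 5 ml/kg, and the liver was taken 1 day after the last dose. The 6 vehicle animals received corn oil alone, and groups of 6 received decabromodiphenylethane (DBDPE), a brominated flame retardant, in 5 daily doses, of which the lowest was 0.1 mg/kg, then 0.97 and 9.71, with 97.1 and 970 mg/kg at the top. All animals were otherwise untreated and of 1 strain, sex and diet, so the arrays bear on that setting only. The comparison asks whether any dose moved the liver transcriptome away from vehicle.

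The urea cycle turns ammonia, released when amino acids are broken down, into urea for excretion. Blood enters the lobule at the portal tracts, and hepatocytes there carry most of the urea cycle, while glutamine synthesis, which takes up the remaining ammonia, lies around the central vein. Within the cycle, Nags makes N-acetylglutamate, the activator that Cps1 needs, and Cps1 and Otc work in the mitochondria, followed by Ass1, Asl and Arg1 in the cytosol. Gls2 releases ammonia from glutamine, Hal opens histidine breakdown, and Cdh1 encodes E-cadherin, a junction protein that is stronger on periportal hepatocytes.

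No member passed the test of a change with DBDPE. Of the 12 probe sets, 0 passed limma with Benjamini-Hochberg adjustment over all 31042 probe sets at 0.05, at any of the 5 doses, in the slope over dose steps or in the F test over all doses. Over all probe sets, 0% passed at 0.1, 0.97 and 9.71 mg/kg, and 0.00644% (2 probe sets) passed at 97.1 mg/kg, at 970 mg/kg, in the slope and in the F test, so that the members' count of 0 does not stand apart from that of the whole array. The smallest adjusted p of a member in limma was 0.999 at 0.1 mg/kg, 0.985 at 0.97, 0.978 at 9.71, 0.974 at 97.1 and 0.966 at 970 mg/kg. At an unadjusted p of 0.05 limma gave 1 member probe set at 0.97 mg/kg (Ass1), 0 at the other 4 doses and in the slope, and 1 in the F test (Nags). Over all probe sets the share at that level was 4.92% at 0.97 mg/kg and 4.18% in the F test, and between 4.46% and 5.70% in the other comparisons.

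The differences from vehicle were small in size as well. At 970 mg/kg they ran from -0.09 to 0.11 on the log2 scale, with 7 of 12 probe sets above 0 and a median of 0.01. The median over all probe sets was -0.004 at that dose. The 95% intervals of the 12 probe sets at 970 mg/kg together spanned -0.24 to 0.28, and those at 9.71 mg/kg -0.35 to 0.22. Each interval holds for its own probe set, so neither span is a joint 95% bound on the change. At 0.1 mg/kg the differences ran from -0.08 to 0.12 with 8 above 0, and at 97.1 mg/kg from -0.10 to 0.08 with 2 above 0. At each dose, the range of every member probe set overlapped that of the vehicle animals, though how often other probe sets did so was not counted.

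**Figure D1:**
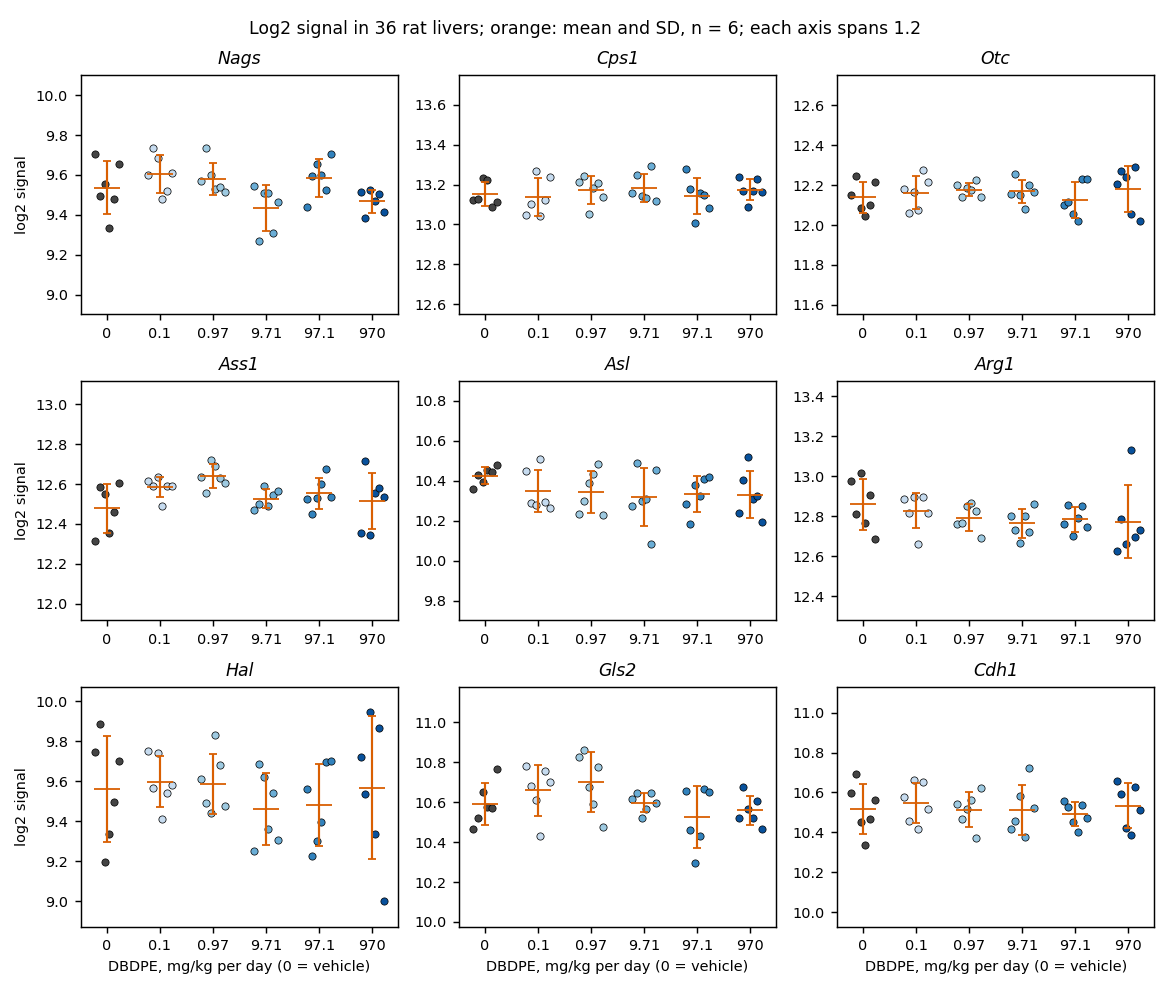
Log2 signal of the 9 genes in each of the 36 livers, by daily dose in mg/kg with 0 for vehicle, each gene by its probe set of highest mean. Points are animals and orange marks are the mean and SD of 6 animals; every panel spans the same 1.2 log2 units, and the groups overlap in all 9 panels, with the widest scatter for Hal.

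Ass1 (probe set 1370964_at), which joins citrulline to aspartate, came closest to a difference. In vehicle animals its log2 signal was lowest at 12.31, with a median of 12.51 and a highest value of 12.60. At 0.97 mg/kg it was lowest at 12.56, with a median of 12.63 and a highest value of 12.72. Of the 6 animals at that dose, 5 exceeded the highest vehicle value and 1 lay within the vehicle range. The mean was 12.48 ± 0.12 (SD, n = 6) for vehicle. It was 12.64 ± 0.06 (SD, n = 6) for 0.97 mg/kg, a 1.12-fold difference. The log2 difference was 0.16 (95% interval 0.05 to 0.27), with a limma p of 0.00626 and an adjusted p of 0.985, and 1526 probe sets had an unadjusted p under 0.05 in that comparison. A two-sided exact permutation test of this gene alone, singled out for its small p, gave p = 0.0108, where the smallest value the design allows is 0.00216. The Ass1 difference was 0.11 at 0.1 mg/kg, 0.05 at 9.71, 0.08 at 97.1 and 0.04 at 970 mg/kg, where the mean was 12.51 ± 0.14 (SD, n = 6). Macrophage markers were also above vehicle in median at 0.97 mg/kg, where 6 of 6 measured markers lay above the vehicle mean, with a median log2 difference of 0.29 and 0 past limma's adjusted threshold. Their summed log2 level ran from 10.70 to 11.38 at 0.97 mg/kg and from 10.30 to 11.32 in vehicle, with 11.39 as the highest value at any dose. None of these 6 lay below the median level of all probe sets, and 2 had an unadjusted limma p under 0.05. T and NK cell markers likewise lay above the vehicle mean in 6 of 6, with a median of 0.19, 0 past the adjusted threshold and 3 with an unadjusted limma p under 0.05. Their summed log2 level ran from 7.37 to 7.64 at 0.97 mg/kg and from 7.00 to 7.50 in vehicle, and 5 of the 6 lay below the median level of all probe sets. Neither list was above vehicle at 0.97 mg/kg alone. The macrophage medians were 0.13 at 0.1 mg/kg, 0.21 at 9.71, 0.09 at 97.1 and 0.22 at 970 mg/kg. Those of T and NK cell markers were 0.09, 0.12, 0.19 and 0.16 at the same doses. At 0.97 mg/kg, 49.96% of all probe sets lay above 0. Across animals Ass1 stood at r = 0.10 with the summed macrophage markers and 0.24 with the summed T and NK cell markers. The part of either marker list in the Ass1 values was not tested.

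Nags (1391907_at) had the largest share of variance between the groups among the members, 32.8%, against a median of 12.5% over all probe sets. Its mean was 9.54 ± 0.13 (SD, n = 6) in vehicle, highest at 0.1 mg/kg with 9.60 ± 0.10 (SD, n = 6) and lowest at 9.71 mg/kg with 9.43 ± 0.12 (SD, n = 6). The 9.71 mg/kg animals ran from 9.27 through a median of 9.49 to 9.54, and 2 of 6 lay below every vehicle animal. The means did not follow the dose, since 97.1 mg/kg stood at 9.59 and 970 mg/kg at 9.47. The F test over doses gave an unadjusted limma p of 0.0371 and an adjusted p of 0.999.

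Cps1, the entry enzyme of the cycle, was read by 2 probe sets. The brighter (1384334_at) had one of the narrower spreads on the array, with an SD within groups of 0.075, and 4.02% of all probe sets varied less. Its 36 values lay between 13.01 and 13.29, a 1.22-fold range over all animals. Vehicle animals ran from 13.09 through a median of 13.12 to 13.23, and 970 mg/kg animals from 13.09 through 13.17 to 13.24. The 970 mg/kg difference was 0.02 (95% interval -0.08 to 0.12). The other Cps1 probe set (1370151_at) scattered more, with an SD of 0.148 and values from 11.38 to 12.05, and its 970 mg/kg difference was 0.11 (95% interval -0.07 to 0.28). At 0.97 mg/kg its difference of 0.12 rested on 1 animal at 12.05 and was 0.05 without it. Across the 36 animals with group means removed, the 2 probe sets correlated at r = 0.41 (permutation p = 0.0249; Spearman's rho = 0.44, permutation p = 0.0149), so they did not track each other closely.

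Otc (1369671_at), which makes citrulline from ornithine and carbamoyl phosphate, varied nearly as little. Its values lay between 12.02 and 12.29 over all animals, and 5.32% of probe sets had a smaller SD. Vehicle animals ran from 12.05 through 12.12 to 12.25, and 970 mg/kg animals from 12.02 through 12.22 to 12.29, with a difference of 0.04 (95% interval -0.06 to 0.14). The 970 mg/kg values thus lay on both sides of the vehicle range.

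Asl (1368916_at), which splits argininosuccinate into arginine and fumarate, was below vehicle in mean at all 5 doses, without passing the test. In vehicle it ran from 10.36 through a median of 10.44 to 10.48, and its vehicle SD of 0.04 was smaller than at any dose, where SDs lay between 0.09 and 0.14. At 970 mg/kg it ran from 10.19 through 10.31 to 10.52, and 4 of 6 animals lay below every vehicle animal while 1 lay above. The differences were -0.08, -0.08, -0.11, -0.09 and -0.09 in order of rising dose, with an adjusted limma p of 0.966 at 970 mg/kg. These 5 differences share the same vehicle animals. The other Asl probe set (1367754_s_at) gave -0.07, -0.07, -0.12, -0.10 and -0.08, and the 2 probe sets followed each other closely across animals with r = 0.94 (permutation p = 1e-05; Spearman's rho = 0.94, permutation p = 1e-05), the smallest p that the permutations can give.

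Arg1 (1368266_at), which releases urea from arginine, was also below vehicle in mean at all 5 doses. Its differences share the same vehicle animals too. How often other probe sets lay on the same side of vehicle at all 5 doses was not counted. Its vehicle values ran from 12.69 through 12.86 to 13.02. At 970 mg/kg they ran from 12.63 through 12.72 to 13.13, so that the highest and the lowest of the 36 values both lay in the top dose group. The 970 mg/kg difference was -0.09 (95% interval -0.22 to 0.04), and the slope was -0.02 per dose step (95% interval -0.04 to 0.004). Without replicate 4 at 970 mg/kg, the animal at 13.13, the difference was -0.16, and without vehicle replicate 3 it was -0.06. The beta-actin difference, log2 signal of the 3′ minus the 5′ control probe set and a measure of RNA quality, had its highest mean at 970 mg/kg, 1.19 ± 0.08 (SD, n = 6), where vehicle had 1.12 ± 0.07 (SD, n = 6). The other means were 1.11 at 0.1 mg/kg, 1.15 at 0.97, 1.14 at 9.71 and 1.12 at 97.1 mg/kg. Asl and Arg1 were below vehicle in mean at those doses too. Across animals the beta-actin difference stood at r = -0.49 with Asl and -0.35 with Arg1, and its part in their values was not tested.

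Hal (1387307_at), histidine ammonia-lyase, was the most variable member. Its SD within groups was 0.227, larger than that of 93.0% of all probe sets, and its values spread 1.93-fold, from 8.999 to 9.95. Vehicle animals ran from 9.20 through 9.60 to 9.89, and 970 mg/kg animals from 8.999 through 9.63 to 9.95. Both ends of its range lay at 970 mg/kg, and the difference in means there was 0.008 (95% interval -0.24 to 0.26).

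Gls2 (1370375_at), the liver-type glutaminase, had its highest mean at 0.97 mg/kg and its lowest at 97.1 mg/kg. In vehicle it ran from 10.46 through 10.57 to 10.77, at 0.97 mg/kg from 10.47 through 10.72 to 10.86, and at 97.1 mg/kg from 10.29 through 10.56 to 10.67. Its differences were 0.11 (95% interval -0.03 to 0.25) at 0.97 mg/kg and -0.07 at 97.1 mg/kg. Cdh1 (1386947_at) had the smallest share of variance between groups among the members, 3.32%, with means between 10.49 and 10.55. Its vehicle animals ran from 10.34 through 10.52 to 10.69, and the 970 mg/kg animals from 10.39 through 10.55 to 10.66. A further Cdh1 probe set (1386446_at) lay near the bottom of the array, between 2.00 and 2.48 with 0.116% of probe sets lower, and it did not follow the first across animals (r = 0.14, permutation p = 0.445; Spearman's rho = 0.17, permutation p = 0.344).

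**Figure D2:**
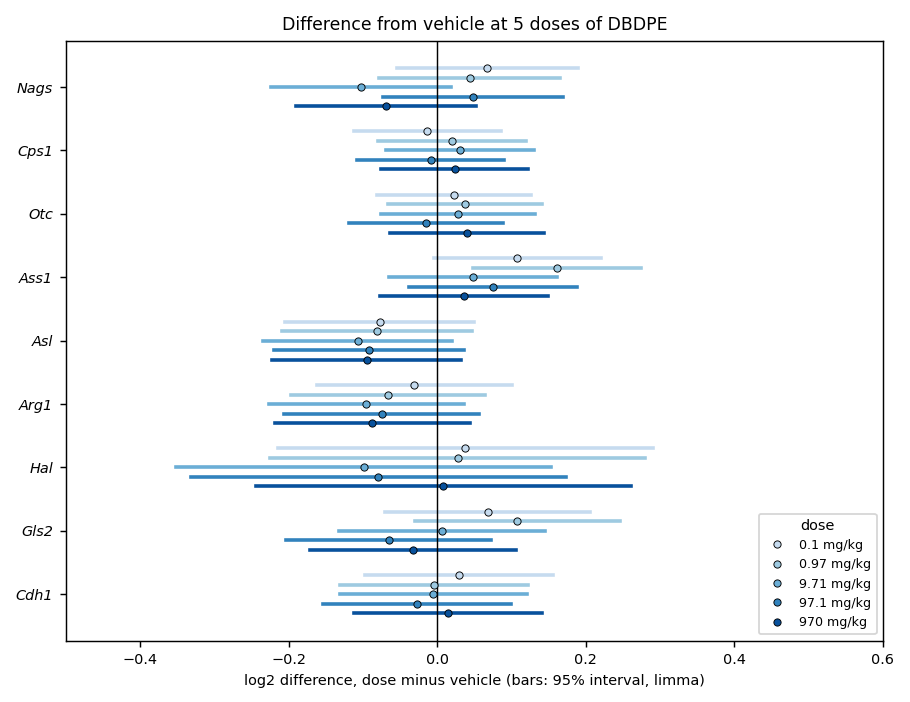
Log2 difference from vehicle of each gene at the 5 doses, by its probe set of highest mean, with 95% intervals from limma. Apart from Ass1 at 0.97 mg/kg, with an interval of 0.05 to 0.27, all intervals include 0, and those of Hal are the widest.

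Genes that feed or work beside the cycle showed no call either. At an unadjusted limma p under 0.05, the 970 mg/kg comparison held 0 of the supply genes, 0 of the histidine genes, and 1 each of the amino acid, other periportal and regulator genes described here, where the share over all probe sets was 4.87%. Of 15 measured genes of nitrogen supply (mitochondrial carriers, transaminases, amino acid transporters and related enzymes), 0 passed limma at any dose; at 970 mg/kg 4 lay above 0, with a median of -0.05 and Gpt, alanine aminotransferase, highest at 0.27 (95% interval -0.07 to 0.61). Gpt was further from vehicle at 3 lower doses, at 0.44 for 0.1 mg/kg, 0.46 (95% interval 0.12 to 0.80) for 0.97 mg/kg and 0.44 for 97.1 mg/kg, with 0.15 for 9.71 mg/kg. Its unadjusted limma p was 0.0136, 0.00968 and 0.0134 at those 3 doses, and its adjusted p was 0.999, 0.985 and 0.900. Of 3 measured genes of histidine breakdown, 0 passed. Their differences at 970 mg/kg were -0.005 for Uroc1 and 0.008 for Ftcd, the urocanase and formiminotransferase that act after Hal, and -0.37 (95% interval -1.01 to 0.26) for Hdc, which makes histamine from histidine. Of 14 other amino acid breakdown genes, 0 passed, with a median of -0.003 at 970 mg/kg and Agxt at -0.20 (95% interval -0.38 to -0.0095). Of 10 measured other periportal genes, 0 passed and 2 lay above 0 at 970 mg/kg, with a median of -0.04, Apoa4 at -0.26 and Pck1, the gluconeogenic enzyme, at -0.36 (95% interval -0.77 to 0.05). Of 13 regulators, 0 passed, and Cebpb, a transcription factor of hepatocytes, was at 0.44 at 970 mg/kg (limma adjusted p = 0.966).

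In the opposite zone, 1 gene passed the adjusted threshold. Of 11 measured pericentral genes, Cyp1a2, a drug-metabolising cytochrome P450, rose at 97.1 mg/kg by 0.51 and at 970 mg/kg by 0.86 (95% interval 0.74 to 0.99; limma adjusted p = 9.91e-12), and the other 10 did not pass. Their median difference at 970 mg/kg was 0.02 with Cyp1a2 included. At that dose 3 of the 11, Cyp1a2, Cyp7a1 and Tbx3, had an unadjusted limma p under 0.05, against 4.87% of all probe sets. Cyp7a1, which opens the main route of bile acid synthesis, was at -1.07 (95% interval -1.85 to -0.30) and did not pass. No test of a zone against the other was run. The tissue label was checked by hepatocyte markers, of which 6 of 7 were measured and 0 lay below the median of all probe sets. Their summed log2 level stayed between 16.46 and 16.53 over all animals. In bulk liver, fewer cells of a type and less RNA per cell cannot be told apart. Array medians lay between 5.07 and 5.12, and the beta-actin difference between 1.02 and 1.33.

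Although no member passed the test of dose, some varied together between animals of the same dose. With group means removed, 36 pairs of members were compared over 36 animals by Pearson's r with within-group permutations, each gene by its probe set of highest mean. Of these, 24 were positive, the median r was 0.08, and 3 passed Benjamini-Hochberg adjustment over the 36 pairs at 0.05, all 3 with Otc. Among all measured genes, in a systematic sample of 2031, 49.9% of pairs were positive and 4.26% had an r of at least 0.43 in size. That cut is on size alone and not on the adjusted p. Member pairs of that size were the 3 with Otc, Cps1 with Asl (r = -0.46) and Asl with Cdh1 (r = -0.43). The 15 pairs within the urea cycle were 7 positive, with a median r of -0.01 and 0 past the threshold.

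**Figure D3:**
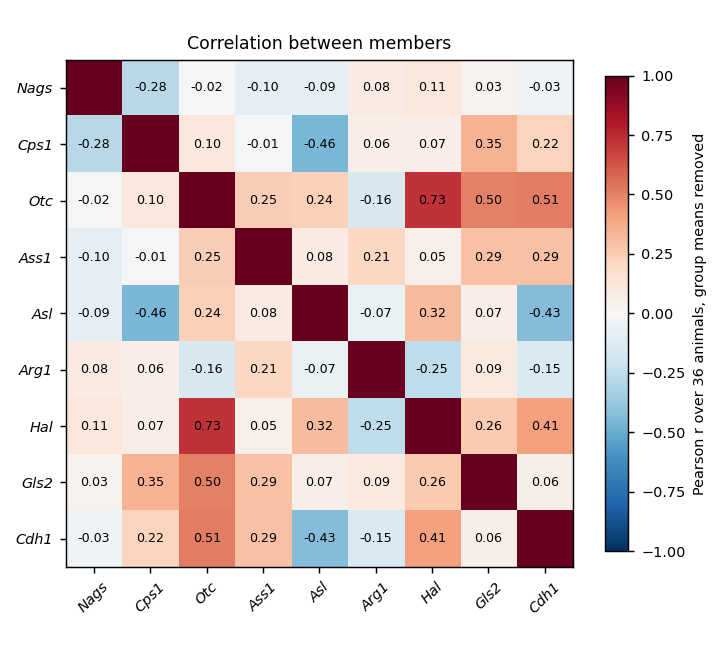
Pearson's r for each pair of the 9 genes over 36 animals after group means were removed, red for positive and blue for negative, with the value in each cell. Otc with Hal has the highest value at 0.73, and Cps1 with Asl the lowest at -0.46.

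Otc and Hal correlated at r = 0.73 (permutation p = 3e-05, adjusted p = 0.00108; Spearman's rho = 0.71, permutation p = 4e-05, adjusted p = 0.00144). The 6 animals at 970 mg/kg show it in their values: Otc was at 12.21, 12.27, 12.24, 12.05, 12.29 and 12.02 in replicates 1 to 6, and Hal at 9.72, 9.54, 9.95, 9.34, 9.87 and 8.999. The animals with the lowest Otc in that group, replicates 4 and 6, also had its lowest Hal. The correlation was positive in 6 of 6 groups, from 0.30 to 0.89, and it was 0.65 without the 2 animals farthest from the median of Otc. Leaving out any 1 of the 36 animals kept it between 0.66 and 0.77. Of the array-wide measures, the second principal component of the centred values, which held 7.43% of their variance, stood at r = -0.52 with Otc and -0.29 with Hal, and at -0.37 with Gls2. The beta-actin difference was at r = 0.06 with Otc and -0.01 with Hal, and the array median at 0.02 and -0.07. Both were negative with the summed stellate cell markers (r = -0.34 and -0.43), whose summed log2 level ran from 11.15 to 12.05 with all 6 of 6 measured and 0 below the median of all probe sets. The part of that component and of those markers in the correlation was not tested.

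**Figure D4:**
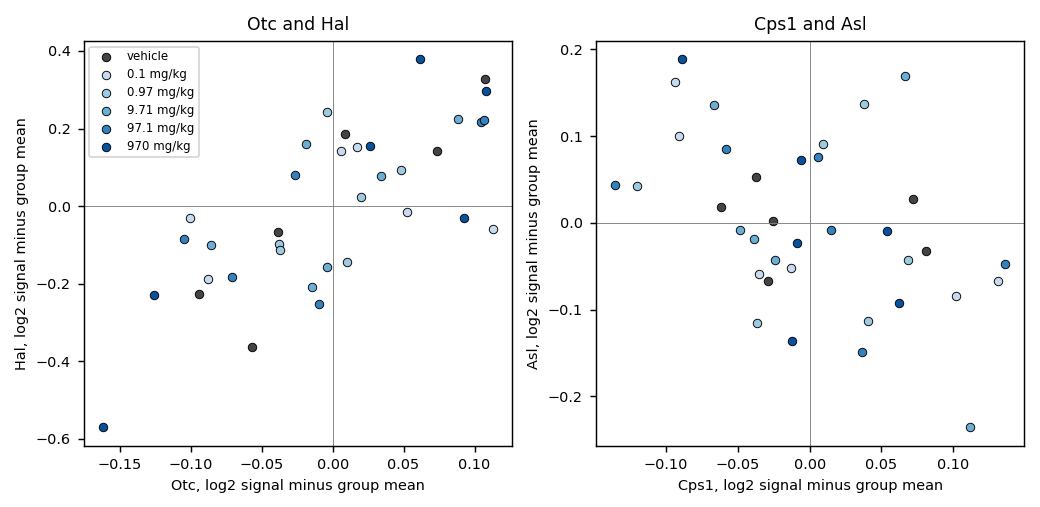
Log2 signal minus group mean in 36 animals, coloured by dose group, for Otc against Hal on the left and Cps1 against Asl on the right. Points of the left panel rise together (r = 0.73), and those of the right panel scatter along a falling one (r = -0.46).

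Otc with Gls2 and Otc with Cdh1 also passed, but not under every setting. Otc and Gls2 gave r = 0.50 (permutation p = 0.00193, adjusted p = 0.0347; Spearman's rho = 0.48, permutation p = 0.00477, adjusted p = 0.0572), with 6 of 6 groups positive and r = 0.49 without the 2 farthest animals. Otc and Cdh1 gave r = 0.51 (permutation p = 0.00333, adjusted p = 0.0400; Spearman's rho = 0.51, adjusted p = 0.0572 by permutation), with 5 of 6 groups positive and r = 0.50 without those animals. Leaving out 1 animal took the adjusted p past 0.05 in 9 of 36 cases for Gls2 and 18 of 36 for Cdh1. For both pairs this held without vehicle replicate 6, replicates 4 or 5 at 0.1 mg/kg, replicates 3, 4 or 5 at 97.1 mg/kg, and replicates 2 or 4 at 970 mg/kg, each of which left 1 passing pair of 3. For Gls2 alone it also held without replicate 6 at 970 mg/kg. For Cdh1 alone it held without vehicle replicates 1 to 5, replicates 1 or 2 at 0.1 mg/kg, 4 or 5 at 9.71 mg/kg and 5 at 970 mg/kg. With the replicate number as a block both were at r = 0.33, with adjusted permutation p-values of 0.271 and 0.235.

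Cps1 and Asl ran in opposite directions without passing. Their r was -0.46 (permutation adjusted p = 0.0829; Spearman's rho = -0.45, adjusted p = 0.0918), negative in 6 of 6 groups. The other Cps1 probe set gave r = -0.03 with Asl, so the relation held for 1 of the 2 Cps1 probe sets. The beta-actin difference moved with both genes, at r = 0.37 for Cps1 and -0.49 for Asl. So did the array median, at 0.56 and -0.39. The first principal component of the centred values, which held 9.68% of their variance, stood at r = -0.54 with Cps1 and 0.47 with Asl. The part of these measures in the pair was not tested.

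Outside the 9 genes, the most like Otc in all 14217 were Pink1 (r = 0.82), a mitochondrial kinase, Ivd (0.80), an enzyme of leucine breakdown, and Uroc1 (0.77), the enzyme after Hal in histidine breakdown. Likeness here is Pearson's r over the 36 animals after group means were removed, a ranking given with no test. For scale, the best r that a gene had with any other gene was 0.71 in the median, with a 5th to 95th percentile of 0.61 to 0.84; for the members that r ran from 0.64 for Nags to 0.82 for Otc. Hal was most like Aqp9 (0.75), a glycerol and urea channel of hepatocytes, then Otc (0.73) and Cyp2t1 (0.71). Hal stood 9th of 14216 genes on the Otc list, and Otc stood 2nd on the Hal list. Gls2 and Cdh1 stood 250th and 220th on the Otc list.

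The other members had different closest genes. Arg1 was most like Klf13 (0.75), Uox (0.71), the urate oxidase, and Edem1 (0.71). Cdh1 was most like Anpep (0.74), a membrane aminopeptidase, Steap3 (0.74) and Coq8a (0.70), and least like Chordc1 (-0.81). Asl was most like Eef1d and Ppp2r2d (0.71 each) and least like Slc39a1 (-0.74), a zinc transporter, while Cps1 was most like Lpo (0.70) and least like Mrps34 (-0.77), a mitochondrial ribosomal protein. Ass1, Gls2 and Nags had their highest r with Anxa8 (0.66), Mro (0.69) and Slc1a4 (0.64). Uroc1 and Ftcd were positive with both Otc (0.77 and 0.60) and Hal (0.64 and 0.49). They were also positive with Gls2 (0.58 and 0.23), Cdh1 (0.56 and 0.29) and Ass1 (0.24 and 0.44). With Asl they were at -0.01 and 0.39, and with Cps1 at 0.26 and -0.09. With Arg1 they were at -0.19 and 0.14, and with Nags at -0.03 and -0.15. Hdc, the other histidine gene measured, was at -0.30 with Otc and -0.10 with Hal. Of the 15 nitrogen supply genes, Aqp9 among them, 11 were positive with Otc and 12 with Hal. The count was also 11 with Ass1, Cdh1 and Gls2, 10 with Asl, 8 with Cps1, 7 with Arg1 and 5 with Nags. Among the sampled pairs of all measured genes, 49.9% were positive.

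Upstream sequence is given for Otc and Gls2, a pair that passed in the main setting but not in every other. It is also given for Aqp9, the gene most like Hal, and for Cps1, the entry enzyme. The RefSeq promoter table (GRCr8) held 6 members in 7 windows, Nags, Cps1, Otc, Ass1, Asl and Gls2, the last with 2 start sites; Arg1, Hal and Cdh1 are named only. Each run is the 250 bases before the annotated start, 5′ to 3′ on the gene's strand, and capitals mark every motif match that a search of both strands found. The motifs were the cyclic AMP response element TGACGTCA and its core TGACG, the C/EBP motif TTGCNNAA, the glucocorticoid receptor core TGTTCT, the HNF4 motif CAAAGTCCA, the TATA box TATAAA and the GC box GGGCGG. A further HNF4-type motif, AAAGTTCA, was added after the windows had been read. The full cyclic AMP element contains its core, and no other pair of them is nested. Windows lie at chrX:15202474-15202723 (minus strand) for Otc, chr7:1201629-1201878 (plus) for the first Gls2 start, chr8:80718189-80718438 (minus) for Aqp9 and chr9:76063613-76063862 (plus) for Cps1.
Otc: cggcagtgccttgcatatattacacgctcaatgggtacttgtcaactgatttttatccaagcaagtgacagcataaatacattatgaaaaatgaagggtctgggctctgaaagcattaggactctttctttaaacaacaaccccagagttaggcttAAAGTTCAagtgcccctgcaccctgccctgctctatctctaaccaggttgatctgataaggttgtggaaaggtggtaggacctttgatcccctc
Gls2: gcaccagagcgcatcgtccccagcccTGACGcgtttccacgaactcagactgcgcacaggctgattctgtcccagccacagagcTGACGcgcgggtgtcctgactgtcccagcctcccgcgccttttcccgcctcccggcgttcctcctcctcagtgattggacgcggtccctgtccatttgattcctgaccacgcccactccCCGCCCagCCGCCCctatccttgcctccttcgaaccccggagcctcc
Aqp9: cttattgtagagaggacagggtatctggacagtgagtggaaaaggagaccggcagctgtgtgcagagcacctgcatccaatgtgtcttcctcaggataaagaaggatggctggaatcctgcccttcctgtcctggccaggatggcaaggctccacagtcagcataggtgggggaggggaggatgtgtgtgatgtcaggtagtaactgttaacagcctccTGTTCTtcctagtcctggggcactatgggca
Cps1: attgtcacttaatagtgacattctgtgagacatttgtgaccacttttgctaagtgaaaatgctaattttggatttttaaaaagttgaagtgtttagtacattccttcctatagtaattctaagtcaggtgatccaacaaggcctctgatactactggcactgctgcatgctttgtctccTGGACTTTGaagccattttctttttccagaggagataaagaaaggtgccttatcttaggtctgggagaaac

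The windows of Otc and Gls2 had no listed motif in common. Otc held AAAGTTCA, the motif added after the windows had been read, starting 94 bases before the start. That motif is in 1.12% of the 33469 windows of the table, a share that cannot tell how unusual a match chosen in this way is. Gls2 held TGACG 224 and 166 bases before its start and the GC box, on the minus strand, at 47 and 39 bases; these motifs are in 18.2% and 30.5% of all windows. Cps1 held the HNF4 motif on the minus strand at 71 bases, which 0.338% of all windows hold, and Aqp9 held TGTTCT at 31 bases, which 17.5% hold. Of the 7 member windows, 0 held the full cyclic AMP element (1.59% of all windows), 0 the C/EBP motif (9.22%), 1 the TATA box (12.9%; Ass1, on the minus strand) and 3 the GC box. Uroc1 held none of them. A match describes these letters only, and none says which factor is bound.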

How the data were processed

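Affymetrix 3′ IVT arrays of 36 livers were used, 6 per group. The authors deposited log2 signals per probe set, made with RMA and affy per the submitters' processing notes; versions are not given in the sources used here. RMA by construction subtracts background and equalises the arrays' distributions, which would hide a shift common to most genes. The number of arrays limits the precision. The labels number the samples within groups, and each was taken as 1 rat; if not, p-values measure only spread between samples. Same-numbered samples of different groups had residuals correlating at a mean r of 0.0048 over 90 pairs, with 15 over 0.1. Samples with other numbers had a mean r of -0.00096 over 450 pairs, with 63 over 0.1. Numbers were therefore not used as pairs, except in the replicate block.

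The members and lists were chosen with earlier results of these data known. Probe sets were named by the platform annotation, counting those that name 1 gene; 57 controls were left out and no filter on low values was set. Each dose, a slope over dose steps 0 to 5 and an F test were fitted to the 36 samples together (limma 3.58.1, R 4.3.3), two-sided, Benjamini-Hochberg adjusted over 31042 probe sets at 0.05. Correlations used group-centred values and 100000 within-group permutations (Python 3.11.15). Every member is named; of other lists up to 4 genes of smallest p per comparison were eligible, and the 3 highest and lowest r per member. Members of other lists named for their correlation (Uroc1, Ftcd) or level were chosen after their values were seen. The fits were tested on simulated data. Alternatives were a replicate block, median centring, cyclic loess, a level filter, mean probe sets, other priors, the 12 samples alone, uncentred values, a threshold of 0.1, and each sample left out.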

Additional observations from a re-analysis of the deposited data

Results flagged for a closer look

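In 7 of 72 sets of 6 animals (12 probe sets in 6 groups), 1 animal stood apart from its group by Dixon's test; chance gives about 1 in 20 such sets, and no explanation was tested. For Cps1 (1370151_at), replicate 4 at 0.97 mg/kg was at 12.05 while the others lay between 11.61 and 11.65. For Ass1, replicate 4 at 0.1 mg/kg was low at 12.49, with the others between 12.59 and 12.64. The same animal was low for Arg1 at 12.66, with the others between 12.82 and 12.90. For Arg1 at 970 mg/kg, replicate 4 was high at 13.13, with the others between 12.63 and 12.79. For Asl (1367754_s_at), vehicle replicate 1 was low at 10.23, with the others between 10.32 and 10.37. For the dim Cdh1 probe set (1386446_at), replicate 5 was high at 0.97 mg/kg (2.28, others 2.04 to 2.12) and replicate 5 at 970 mg/kg (2.48, others 2.11 to 2.23).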

How the results depend on the processing

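The count of member probe sets past limma's threshold was 0 in all 7 comparisons under each alternative run, the replicate block, the threshold of 0.1 and each left-out animal included. Over all probe sets the count at 97.1 and 970 mg/kg was 2 or 3 under the 7 alternatives in which it was taken, leave-one-out aside. The count of member pairs past the threshold was 3, but 2 each with centred arrays, cyclic loess and mean probe sets, 1 with the replicate block, and 1 to 4 with 1 animal left out. It was 3 without centring on group means. With the replicate block r was 0.33 for Otc with Gls2 and 0.33 for Otc with Cdh1. Otc with Cdh1 missed the threshold with centred arrays (0.49), cyclic loess (0.48) and mean probe sets (0.49) as well. With 1 animal left out, Otc with Gls2 gave 0.46 to 0.56, Otc with Cdh1 0.47 to 0.57 and Otc with Hal 0.66 to 0.77. At 970 mg/kg, leaving out 1 animal turned the sign of differences that did not pass: -0.00403 to 0.0697 for Ass1, -0.0675 to 0.122 for Hal, -0.0584 to 0.00227 for Gls2, -0.0214 to 0.0493 for Cdh1 (1386947_at) and -0.0363 to 0.0428 for its dim probe set. At 0.1 mg/kg Cdh1 (1386947_at) ran from -0.00701 to 0.0637. The cause was not tested. Signal over background limits the dim Cdh1 probe set, and 6 animals a group leave changes within the intervals given undetected.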
